A study of Homo sapiens with 8 samples.

Results

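The 10 genes described here encode bone morphogenetic protein (BMP) and activin signals, the secreted proteins that restrain them, and the ID transcription regulators that BMP signalling controls. They are BMP1, BMP2, BMP4, INHBA, FST, GREM1, CHRDL1, ID1, ID2 and ID3, chosen by name and found by Ensembl identifier among the 58884 genes of each deposited table. All 10 were present in the tables of all 4 cell lines. The libraries came from human thyroid cancer lines, 8505C and CAL-62 from anaplastic carcinoma, TPC-1 from papillary carcinoma and FTC-133 from follicular carcinoma. The study asked what changes when NR1D1, which encodes the clock repressor REV-ERB alpha, is lowered or raised. The 8505C and CAL-62 cells received a control siRNA or an siRNA against NR1D1, and the labels call these WT and NR1D1 knockdown. The TPC-1 and FTC-133 cells received an empty vector or a vector that overexpresses NR1D1, and the labels call these WT and NR1D1 overexpression. Each of these 8 groups is 1 library, so a line has no replicate, and every control carried a control siRNA or an empty vector. The sources used here do not state the promoter of the vector, the time of harvest or whether the cells were a selected pool.

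BMPs and activins are dimeric ligands of the TGF-beta superfamily. BMPs act through type I and type II receptor kinases on SMAD1, SMAD5 and SMAD9, and activins act on SMAD2 and SMAD3. Noggin, gremlin and chordin-like proteins bind BMPs outside the cell, and follistatin binds activin most tightly. ID proteins lack a DNA-binding region and hold E-protein transcription factors in inactive pairs, and ID1, ID2 and ID3 are among the most direct targets of BMP-activated SMADs. In thyroid, ID1 is expressed in follicular cells and activin A restrains their growth.

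Levels are given as TPM, a measure per transcript length in which each library sums to 1000000. Recovered depth was 12855586 to 23184775 reads per library. NR1D1 had a treated over control ratio of 0.616 in 8505C, 0.462 in CAL-62, 1.10 in TPC-1 and 1.30 in FTC-133, so the vector lines differed little in the targeted gene. Genes of the mitochondrial genome took 57.2% of the CAL-62 control library and 67.8% of the CAL-62 siRNA library, beside 15.7% to 29.3% in the other 6. With that change the median gene with a mean of at least 5 TPM had a log2 ratio of -0.35 in CAL-62, and 0.03 when mitochondrial genes were left out of the scale. The log2 ratio of NR1D1 in CAL-62 was -1.04, and -0.69 without mitochondrial genes. Log2 ratios of the members in CAL-62 that rest on at least 10 reads a library are given on both scales below. The thyroid transcription factor genes differed in which lines held them. PAX8 was at 0.50 TPM in both 8505C libraries and 53.8 TPM or more in the other 6. NKX2-1 was highest in 8505C, at 63.4 and 100.3 TPM. It was at 14.16 TPM or more in FTC-133 and listed at 0 in CAL-62 and TPC-1. FOXE1 was at 13.2 and 23.06 TPM in TPC-1 and at 1.73 TPM or less in the other 6. Thyroglobulin, the follicular product TG, did not exceed 0.69 TPM in any library. Fibroblast markers (DCN, LUM, PDGFRA, FAP, COL1A2 and THY1) summed to 2115 and 1627 TPM in the FTC-133 libraries, with PDGFRA listed at 0, and to between 0.10 and 71.3 TPM in the other 6. Most of the FTC-133 sums was COL1A2 (1570 and 944.5 TPM) and THY1 (492 and 607 TPM).

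**Figure D1:**
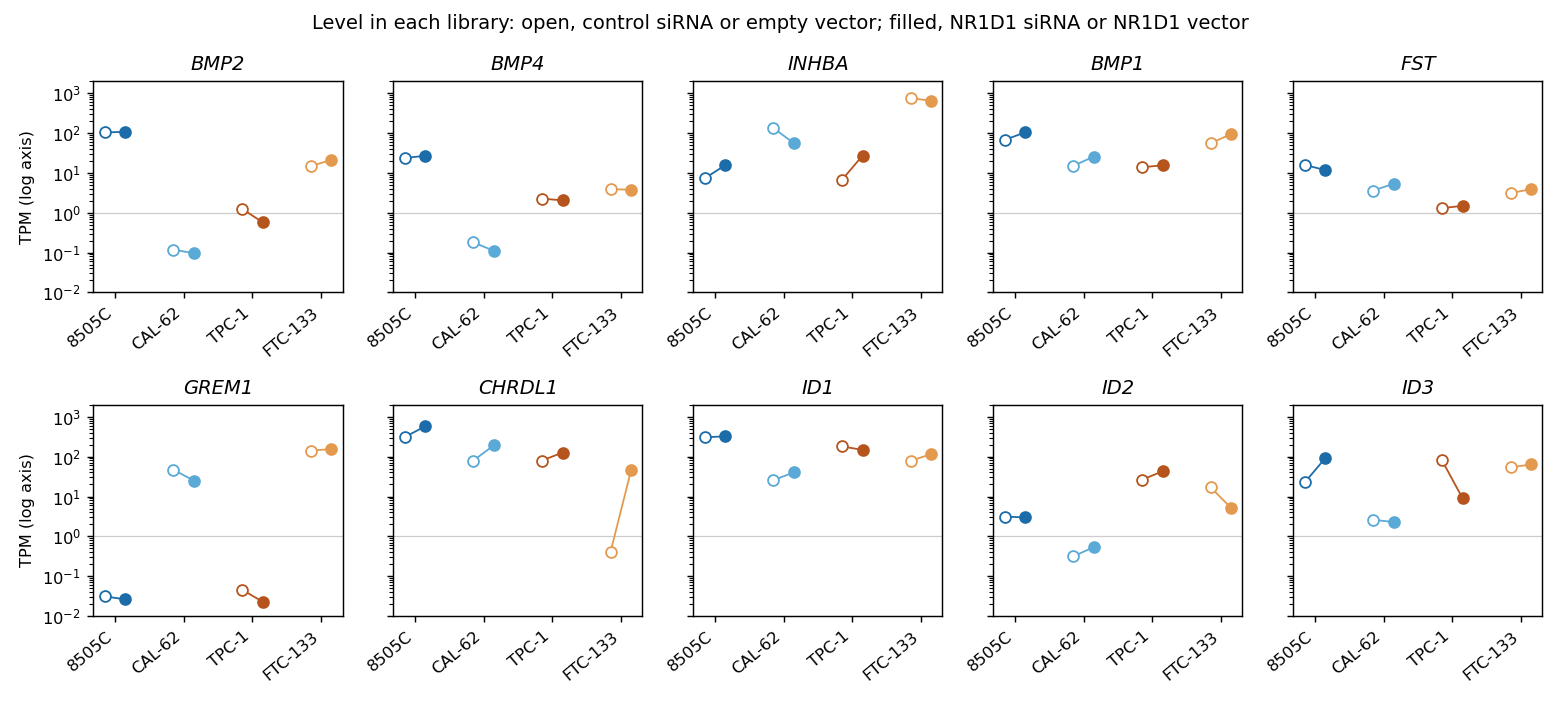
Level of each of the 10 genes in each library, in TPM on a log axis, with control siRNA or empty vector as open points and NR1D1 siRNA or NR1D1 vector as filled points, joined within a line. The lines differ more than the treatments for most genes, and the steepest joins are CHRDL1 in FTC-133 (0.41 to 46.4 TPM) and ID3 in TPC-1 (81.0 to 9.10 TPM).

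Control cells of the 4 lines held very different sets of these signals. Over the control libraries the highest value + 1 was at least 10 times the lowest for 8 of the 10 genes, all except BMP1 and FST. Of all 17595 genes with a mean of at least 1 TPM, 2074 (11.8%) had such a range. Without mitochondrial genes in the scale the count was 7 of 10, as ID1 (432 TPM in 8505C and 59.9 in CAL-62) fell below that range. The share of all genes on that scale was not computed. The members were chosen with earlier results of these data known, so the share over all genes is not an independent yardstick. A gene such as GREM1 also reaches a mean of at least 1 TPM only through the lines where it is high. The tables were normalized separately and each line has 1 control library, so these levels are a description with no test, and the intervals below cover counting error only.

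The ligand genes BMP2 and BMP4 were highest in 8505C and lowest in CAL-62. BMP2, a ligand best known from bone formation, was at 102.9 TPM in 8505C control cells, 14.5 in FTC-133, 1.25 in TPC-1 and 0.12 in CAL-62. The CAL-62 value rested on 3 reads (95% interval 0.024 to 0.339 TPM), and no interval of a neighbouring line overlapped another. BMP4, its close relative, had the same order, with 23.5, 3.88, 2.26 and 0.18 TPM, and the intervals of FTC-133 and TPC-1 overlapped. Thus control cells of 8505C held the most RNA of both ligands, and CAL-62 held next to none.

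INHBA, which encodes the subunit of activin A, had another order. It was at 745 TPM in FTC-133 control cells (95% interval 736 to 754), 133 in CAL-62, 7.24 in 8505C and 6.65 in TPC-1. The values of 8505C and TPC-1 did not differ beyond counting error, and the FTC-133 level was 112 times that of TPC-1. GREM1, which encodes the BMP antagonist gremlin, was high in the same lines, with 142 TPM in FTC-133 and 46.9 in CAL-62. It was at 0.046 TPM in TPC-1 and 0.031 in 8505C, on 4 and 2 reads, which puts both at the edge of detection. Gremlin is known as a product of stromal fibroblasts, and FTC-133 was also the line with the most fibroblast marker RNA, mostly COL1A2 and THY1. CAL-62 control cells held COL1A2 at 39.2 TPM, with DCN, LUM and THY1 listed at 0. The part of a fibroblast-like cell state in the GREM1 level was not tested.

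CHRDL1, which encodes the BMP antagonist chordin-like 1, was at 308 TPM in 8505C control cells, 79.8 in TPC-1, 79.7 in CAL-62 and 0.41 in FTC-133. The FTC-133 value rested on 7 reads (95% interval 0.17 to 0.85 TPM), and TPC-1 and CAL-62 overlapped. FST, which encodes follistatin, was at 15.7 TPM in 8505C, 3.59 in CAL-62, 3.11 in FTC-133 and 1.30 in TPC-1. CAL-62 and FTC-133 overlapped there. BMP1 is not a ligand despite its name but a tolloid metalloprotease, which trims procollagens and cleaves chordin. It was the most even of the 10 genes, at 66.8 TPM in 8505C, 54.6 in FTC-133, 14.97 in CAL-62 and 13.8 in TPC-1.

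The ID genes were all lowest in CAL-62, the line with next to no BMP2 and BMP4 RNA. The order of the other lines differed from that of the ligands for each ID gene, and a link was not tested. ID1 was at 305 TPM in 8505C control cells, 180 in TPC-1, 78.5 in FTC-133 and 25.6 in CAL-62. ID3 was at 81.0 TPM in TPC-1, 53.7 in FTC-133, 22.4 in 8505C and 2.61 in CAL-62. ID2 was at 26.4, 17.0, 3.14 and 0.31 TPM in the same order as ID3. No neighbouring lines overlapped in their counting intervals for any ID gene. ID1 was thus highest in 8505C, and ID2 and ID3 were highest in TPC-1. Leaving mitochondrial genes out of the scale kept the order of lines for 9 of the 10 genes, the exception being CHRDL1, where CAL-62 (186 TPM) then stood above TPC-1 (96.6).

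The genes whose 8 log2 values lay closest to those of ID1 were MIR210HG, AFAP1 and SLCO3A1, at root mean square distances of 0.26, 0.34 and 0.37 among 10361 named genes. For INHBA they were ACTBL2, WFDC2 and ELOVL2, at 0.81, 0.89 and 0.90. The spread of ID1 around its own mean was 1.21 on that scale and that of INHBA 2.45.

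Changes with treatment were counted in each line as 2-fold, a log2 ratio of TPM + 1 of at least 1 either way, among genes with a mean of at least 1 TPM in its libraries. In 8505C 2 of 9 measured members were 2-fold higher after NR1D1 siRNA (INHBA and ID3) and 0 were lower, where 11.9% of all genes were higher and 5.86% lower. In CAL-62 1 of 7 was higher (CHRDL1; all genes 5.3%) and 1 was lower (INHBA; all genes 10.7%). Without mitochondrial genes in the scale, CAL-62 had 3 of 8 higher (BMP1, CHRDL1 and ID1; all genes 15%) and 0 lower (all genes 7.46%), so the lower call of INHBA was lost. In TPC-1 1 of 8 was higher with the NR1D1 vector (INHBA; all genes 6.28%) and 1 was lower (ID3; all genes 5.25%). In FTC-133 1 of 10 was higher (CHRDL1; all genes 9.76%) and 1 was lower (ID2; all genes 6.91%). With 1 or 2 members a line, these counts are too few to set the group apart from other genes. The median log2 ratio of the measured members was 0.18 in 8505C, beside 0.05 for all genes, and 0.47 in CAL-62, beside -0.28, or 0.77 beside 0.11 without mitochondrial genes. It was 0.13 in TPC-1, beside -0.02, and 0.25 in FTC-133, beside 0.05.

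**Figure D2:**
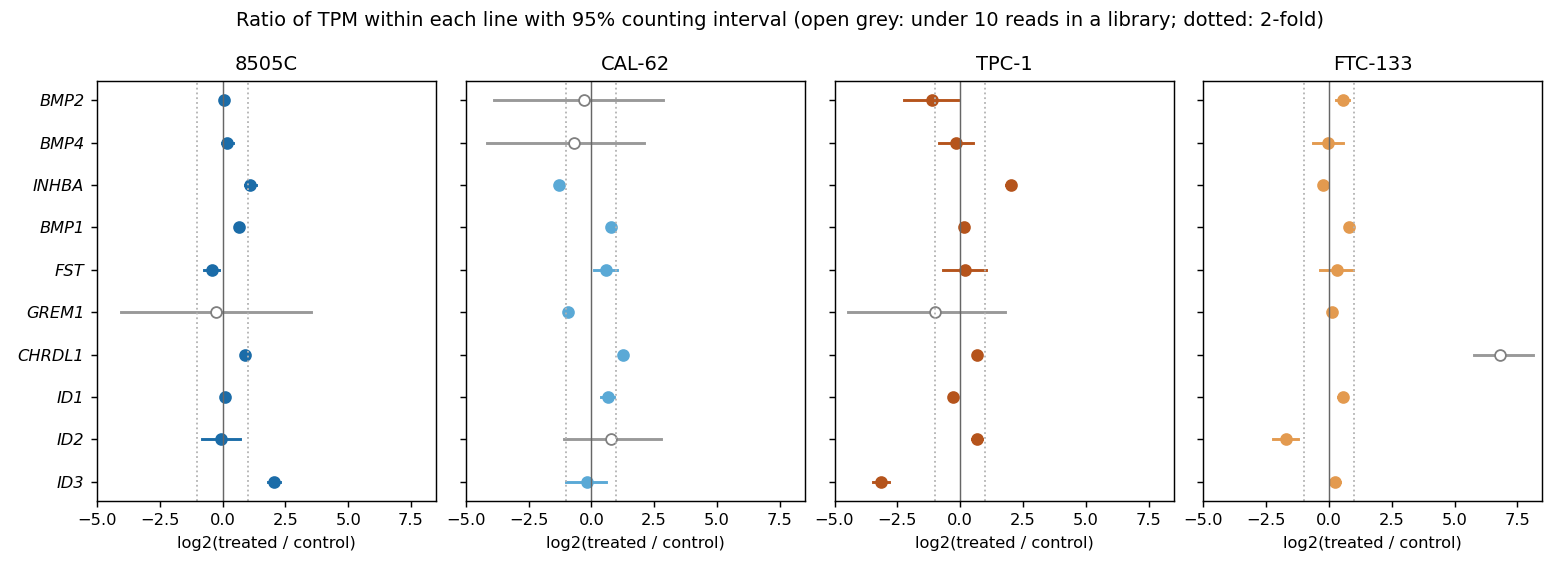
Treated over control ratio of TPM for each gene in each line on a log2 axis, with the exact 95% counting interval as a bar; grey open points had under 10 reads in a library, and dotted lines mark 2-fold. CHRDL1 lies above 0 in all 4 panels, while ID3 and INHBA lie on different sides in different lines.

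CHRDL1 was higher in the treated library of every line. In 8505C it was at 308 TPM with control siRNA and 578 with NR1D1 siRNA, and in CAL-62 at 79.7 and 193. In TPC-1 it was at 79.8 TPM with the empty and 126 with the NR1D1 vector, and in FTC-133 at 0.41 and 46.4. The FTC-133 difference rested on 7 and 748 reads, a ratio of 112 (95% interval 54.3 to 281), and ranked 7 from the top among 16501 genes of that line. The other ratios were 1.88 in 8505C, 2.42 in CAL-62 and 1.58 in TPC-1, and the log2 ratio in CAL-62 was 1.27, or 1.68 without mitochondrial genes. CHRDL1 was thus higher both with the siRNA against NR1D1 and with the NR1D1 vector, although NR1D1 RNA itself differed little in the vector lines. BMP1 was the other member higher in all 4 treated libraries, and 6.78% of all 17595 genes were.

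CHRDL1 RNA was abundant in the other 3 lines, so other genes of those lines were looked up in FTC-133, a check chosen after the values were seen. Of 34 genes with at least 50 TPM in 8505C control cells and under 1 TPM in FTC-133 with the empty vector, 3 reached 10 TPM with the NR1D1 vector, CHRDL1, GJA1 and IGFBP7. Of 30 such genes from TPC-1, 4 did, again CHRDL1, GJA1 and IGFBP7, with an entry that has no gene name. Of 23 from CAL-62, 3 did (CHRDL1 and the small RNA entries MIR6835 and RNU6-882P). The sets share genes, so their counts are not separate. The share over all genes under 1 TPM in FTC-133 was not computed. The genes from 8505C had a median of 0.119 TPM with the empty vector and 0.225 TPM with the NR1D1 vector. Those from TPC-1 had medians of 0.162 and 0.533 TPM, and those from CAL-62 had a median of 0 in both. CHRDL1 itself is among the genes that reached 10 TPM in each set, and most of the others stayed under it. The limit is fixed, so a small share of a gene near 50 TPM in another line would not reach it. These counts therefore cannot say where the CHRDL1 RNA came from, which was not tested.

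In the limma fit the vector change of CHRDL1 over TPC-1 and FTC-133 was 2.86 (SE 0.91) on the log2(TPM + 1) scale, higher in 2 of 2 lines, and did not pass (limma, Benjamini-Hochberg adjusted p = 0.94 over 17595 genes). Without FTC-133 it was 0.66, and without TPC-1 it was 5.07. The siRNA change of CHRDL1 was 1.09 (SE 0.91, limma adjusted p = 0.652), higher in 2 of 2 lines. Both changes of a gene share their spread in this fit, so that SE also holds the gap between TPC-1 and FTC-133. The siRNA lines themselves had log2 ratios of 0.91 (8505C) and 1.27 (CAL-62). Among the 10 members and 4 comparisons, the vector change of CHRDL1 was the only one with an unadjusted p under 0.05.

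ID3 had the largest differences among the 3 ID genes, and they lay in opposite directions. In 8505C it went from 22.4 to 91.5 TPM after NR1D1 siRNA, on 174 and 846 reads, a ratio of 4.08 (95% interval 3.46 to 4.83). In TPC-1 it went from 81.0 to 9.10 TPM with the NR1D1 vector, on 854 and 96 reads, a ratio of 0.112 (0.090 to 0.139). That placed ID3 at rank 42 from the bottom of 16175 genes in TPC-1. In CAL-62 it went from 2.61 to 2.29 TPM, a ratio of 0.877 whose interval (0.492 to 1.51) includes 1. Its log2 ratio there was -0.13, and 0.19 without mitochondrial genes. In FTC-133 it went from 53.7 to 63.7 TPM. So 1 siRNA line and 1 vector line showed the large changes, and the other line of each approach showed little.

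ID1 was at 305 TPM in control and 322 in treated 8505C cells, and the pair was 25.6 and 40.4 TPM in CAL-62. In TPC-1 the pair was 180 and 148 TPM, and in FTC-133 it was 78.5 and 115 TPM. Its log2 ratios of 0.08, 0.64, -0.29 and 0.55 were all under 2-fold on the TPM scale. Without mitochondrial genes the CAL-62 log2 ratio was 1.05, which is past 2-fold. ID2 was low in the siRNA lines, at 3.14 and 2.99 TPM in 8505C and at 0.31 and 0.54 in CAL-62. In the vector lines it went from 26.4 to 42.6 TPM (TPC-1) and from 17.0 to 5.16 TPM (FTC-133). The FTC-133 ratio was 0.303 (95% interval 0.216 to 0.425). In TPC-1 ID3 was lower and ID2 higher in the same library, and in FTC-133 ID2 was lower while ID1 and ID3 were higher. The 3 ID genes therefore did not share a direction in either vector line.

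ID4, the remaining ID gene, was in the list of BMP target genes and is named here after its values were seen. With the NR1D1 vector it was at 0.044 TPM in TPC-1, against 5.02 with the empty vector, and at 7.78 in FTC-133, against 19.4. The treated TPC-1 value rested on under 3 reads. Its vector change was -1.87 (SE 0.42, limma adjusted p = 0.668), lower in 2 of 2 lines. It was under 1 TPM in both siRNA lines.

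The fitted siRNA change of ID3 was 0.92 (SE 0.81, limma adjusted p = 0.667), and its vector change was -1.39 (SE 0.81, limma adjusted p = 1). The difference between them was 2.31 (SE 1.14) and did not pass (limma adjusted p = 0.74). Set by the labelled level of NR1D1, ID3 was 1.16 lower on the log2 scale in the NR1D1-higher libraries by the fit, a difference of -1.16 (SE 0.54, limma adjusted p = 0.938) that had the same sign in 2 of 4 lines, and in 3 of 4 without mitochondrial genes, where CAL-62 turned. Leaving out 8505C turned the siRNA change to -0.13, and leaving out TPC-1 turned the vector change to 0.24. For ID1 the siRNA change was 0.36 (SE 0.32) and the vector change 0.13 (SE 0.32), the latter -0.29 without FTC-133.

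RefSeq promoter windows on GRCh38.p14, 250 bases before to 50 bases after each start, were available for 8 of the 10 genes. Those of the ID genes are shown because the 3 genes differed in direction, and that of CHRDL1 because it had the largest ratio. Windows were searched on both strands for AGGTCA, the core motif of REV-ERB and ROR receptors, GGCGCC, a GC-rich SMAD element, and CACGTG, the E-box, and matches are in capitals. The start of each gene lies after base 250. ID1 is at chr20:31605039-31605338 (plus strand), ID2 at chr2:8681806-8682105 (plus), ID3 at chr1:23559452-23559751 (minus) and CHRDL1 at chrX:110795768-110796067 (minus).
ID1: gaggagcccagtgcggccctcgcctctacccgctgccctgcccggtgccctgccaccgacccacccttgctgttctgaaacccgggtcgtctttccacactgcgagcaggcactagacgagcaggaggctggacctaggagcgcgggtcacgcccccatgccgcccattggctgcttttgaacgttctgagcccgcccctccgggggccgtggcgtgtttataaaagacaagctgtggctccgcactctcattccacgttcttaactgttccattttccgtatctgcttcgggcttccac
ID2: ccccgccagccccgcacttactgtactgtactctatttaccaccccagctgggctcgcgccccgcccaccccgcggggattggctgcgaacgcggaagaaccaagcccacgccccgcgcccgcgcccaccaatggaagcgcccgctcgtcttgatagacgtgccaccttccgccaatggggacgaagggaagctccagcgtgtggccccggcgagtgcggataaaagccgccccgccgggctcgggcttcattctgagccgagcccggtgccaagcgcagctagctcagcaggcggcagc
ID3: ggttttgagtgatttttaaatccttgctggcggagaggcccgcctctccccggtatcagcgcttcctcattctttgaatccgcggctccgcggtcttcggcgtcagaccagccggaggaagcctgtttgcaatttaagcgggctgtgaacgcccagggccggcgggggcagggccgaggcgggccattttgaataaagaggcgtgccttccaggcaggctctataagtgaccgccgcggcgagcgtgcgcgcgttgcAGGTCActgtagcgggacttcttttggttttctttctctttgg
CHRDL1: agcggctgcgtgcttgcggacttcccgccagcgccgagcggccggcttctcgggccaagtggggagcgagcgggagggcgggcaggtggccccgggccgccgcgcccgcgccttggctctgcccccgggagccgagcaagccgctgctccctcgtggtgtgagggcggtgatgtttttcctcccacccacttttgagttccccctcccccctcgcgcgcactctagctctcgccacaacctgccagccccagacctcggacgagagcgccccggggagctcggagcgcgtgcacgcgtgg

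The ID3 window held a single AGGTCA, which begins at base 8 of the transcript, and the ID1, ID2 and CHRDL1 windows held none of the 3 motifs. AGGTCA was found for 2 of the 8 genes, ID3 and GREM1, and for 16.5% of all 27305 genes with a window. GGCGCC was found for 2 of 8, BMP4 and GREM1, and for 22% of all genes, and CACGTG for 1 of 8, BMP4, and for 8.77%. Some genes have several windows, and the 8 genes had 11; over all 35116 windows the shares were 13.8%, 19.2% and 7.26%. These are matches of letters in a short window, and binding was not measured.

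INHBA differed 2-fold in 3 of the 4 lines, in both directions. In 8505C it went from 7.24 to 15.6 TPM, a ratio of 2.16 (95% interval 1.86 to 2.50), and CAL-62 had 133 and 54.9 TPM, a ratio of 0.413. In TPC-1 the NR1D1 vector library had 26.9 TPM against 6.65, a ratio of 4.05 (3.58 to 4.59), and FTC-133 had 640 against 745. INHBA was thus higher after treatment in the lines with low control levels and lower in those with high ones. The control value is also the divisor of each ratio, and a relation between level and change was not tested. Its CAL-62 log2 ratio was -1.26, and -0.86 without mitochondrial genes. The siRNA change over both lines was -0.12 (SE 0.66, limma adjusted p = 0.973), and 0.0827 without mitochondrial genes. The vector change was 0.83 (SE 0.66, limma adjusted p = 1), and -0.22 without TPC-1.

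BMP2 and BMP4 were within 2-fold of their control levels in every line where they had a mean of at least 1 TPM. BMP2 was at 102.9 TPM in control and 106.6 in treated 8505C cells and at 14.5 and 21.2 TPM in FTC-133, a ratio of 1.46 (95% interval 1.22 to 1.73). In TPC-1 it had 1.25 and 0.58 TPM on 26.4 and 12.2 reads. BMP4 was at 23.5 and 26.8 TPM in 8505C, 2.26 and 2.03 in TPC-1, and 3.88 and 3.77 in FTC-133. The interval of the BMP4 ratio included 1 in each of these lines, and in CAL-62 each ligand rested on 2 to 4 reads a library.

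Of the antagonists, GREM1 went from 46.9 to 24.9 TPM in CAL-62, a log2 ratio of -0.89, and -0.50 without mitochondrial genes. In FTC-133 it had 142 and 154 TPM, and in the other lines 2 to 4 reads a library. FST had 15.7 TPM in control and 11.7 in treated 8505C cells, and 3.59 and 5.34 in CAL-62. Its vector pairs were 1.30 and 1.49 TPM in TPC-1 and 3.11 and 3.88 in FTC-133, and all 4 ratios were under 2-fold. The CAL-62 log2 ratio of FST was 0.47, and 0.91 without mitochondrial genes.

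BMP1, the protease, had 103.6 TPM in treated against 66.8 in control 8505C cells, and 25.5 against 14.97 in CAL-62. Under NR1D1 overexpression it had 15.4 against 13.8 TPM in TPC-1, and 94.3 against 54.6 in FTC-133. The ratios were 1.55, 1.70, 1.12 and 1.73, and the lowest lower bound of their intervals, in TPC-1, was 1.003. Its siRNA change was 0.68 (SE 0.28, higher in 2 of 2 lines, limma adjusted p = 0.417), and its vector change was 0.47 (SE 0.28, higher in 2 of 2 lines, limma adjusted p = 1). In CAL-62 the log2 ratio was 0.73, and 1.16 without mitochondrial genes.

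**Figure D3:**
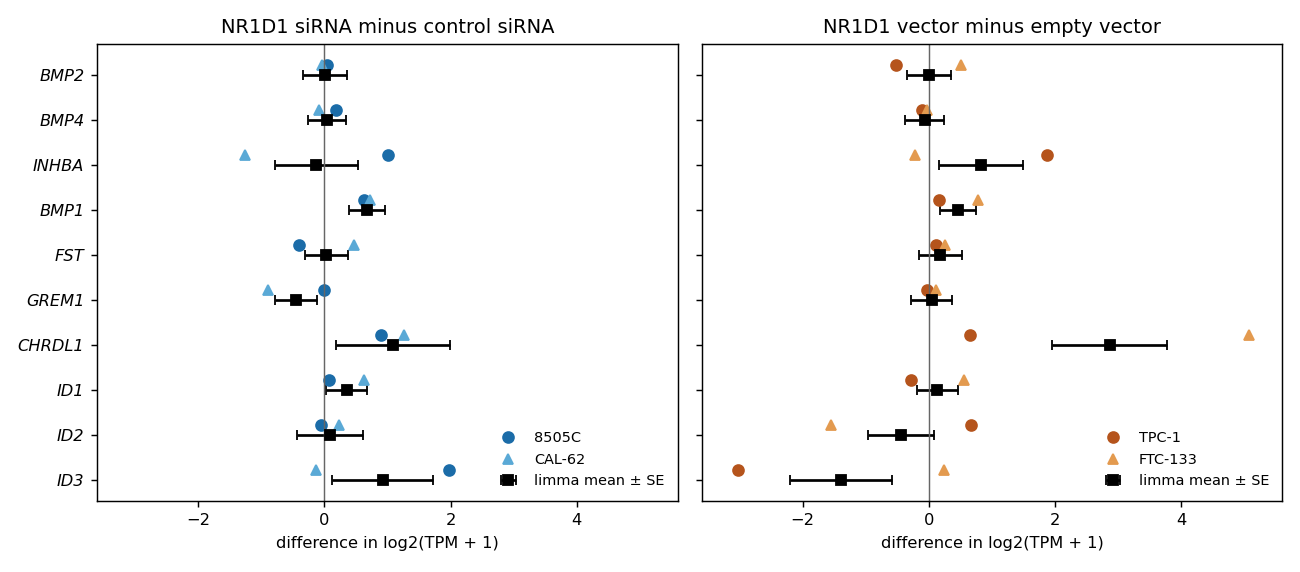
Fitted siRNA change and vector change of each gene in log2(TPM + 1), as black squares with the limma standard error, beside the values of the lines they rest on. The siRNA and vector changes of a gene share their standard error. The 2 siRNA lines lie close together for BMP1 (0.63 and 0.73), while its vector lines do not (0.15 and 0.78); the lines of each approach lie far apart for INHBA and ID3, and none of the changes passed.

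Over all genes, limma called 0 genes (0%) in the siRNA comparison, 0 (0%) in the vector comparison, 0 (0%) for the difference between them and 0 (0%) for NR1D1-higher against NR1D1-lower libraries. At unadjusted p under 0.05 the siRNA comparison had 2114 genes (12%), the vector comparison 784 (4.46%), their difference 1174 (6.67%) and the NR1D1-ordered comparison 720 (4.09%). The members had 0, 1, 0 and 0 of 10. The lowest adjusted p of a member was 0.417, 0.94, 0.74 and 0.938 in that order. The siRNA and the vector were given to different lines, so approach and line cannot be told apart. These p-values rest on the spread between lines, which the siRNA and vector changes of a gene share.

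The rest of the pathway was read from lists of 83 further genes, of which 82 had a symbol in the tables. In 8505C 6 of 42 measured pathway genes (14.3%; all genes 11.9%) were 2-fold higher after NR1D1 siRNA and 0 were lower (all genes 5.86%). They were the receptor genes ENG and ACVRL1, the activin antagonist gene FSTL3, the BMP effector gene SMAD5 and the target genes HES1 and MSX1. ENG, an endothelial coreceptor of BMP9, went from 80.6 to 217 TPM, and SMAD5 from 15.1 to 40.9. ENG and ACVRL1 are typical of endothelium, and the markers PECAM1, VWF, CDH5 and KDR summed to 49.6 TPM in 8505C control cells and 145 after siRNA, with 2 of 4 at 1 TPM or more in each. Nearly all of that was CDH5 (46.8 and 139.6 TPM), while PECAM1 had 2.66 and 5.15 TPM and VWF and KDR at most 0.37 TPM. ENG was also at 155.5 and 131 TPM in TPC-1 and at 75.5 and 82.4 TPM in FTC-133. The same markers summed to between 0.74 and 5.36 TPM in those libraries. ACVRL1 was at 1.01 TPM or less outside 8505C. The part of an endothelial state in the 8505C result was not tested. In CAL-62 2 of 33 (6.06%; all genes 5.3%) were higher and 3 (9.09%; all genes 10.7%) lower. Without mitochondrial genes it was 5 higher and 3 lower of 44, beside 15% and 7.46% of all genes. NOG, which encodes the BMP antagonist noggin, went from 3.38 to 12.4 TPM and the tolloid gene TLL2 from 3.67 to 17.8, while SMAD3 went from 142 to 49.6, SMAD1 from 8.12 to 2.56 and the receptor gene BMPR1B from 3.64 to 0.92. Without mitochondrial genes these 5 CAL-62 log2 ratios were 2.15, 2.55, -1.10, -1.16 and -1.30.

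In TPC-1 1 of 41 pathway genes (2.44%; all genes 6.28%) was higher with the NR1D1 vector, GDF15, and 1 (all genes 5.25%) was lower, ID4. GDF15, a stress-induced cytokine of the superfamily, went from 18.1 to 100.1 TPM. In FTC-133 4 of 39 (10.3%; all genes 9.76%) were higher and 2 (5.13%; all genes 6.91%) lower. The shares in CAL-62 and FTC-133 were thus near those of all genes. SMAD3, which carries activin signals, went from 23.5 to 72.7 TPM, HES1 from 42.8 to 132, PCOLCE, which encodes the enhancer of BMP1 protease activity, from 40.8 to 84.9 and HEY1 from 2.51 to 6.10. NOG was at 5.005 and 1.03 TPM there and, with ID4, made up the lower genes. NOG and SMAD3 each lay in opposite directions in the CAL-62 and FTC-133 comparisons. The median log2 ratio of these pathway genes was 0.16 in 8505C and -0.29 in CAL-62, and 0.02 in TPC-1 and 0.06 in FTC-133, beside the medians of all genes given above.

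**Figure D4:**
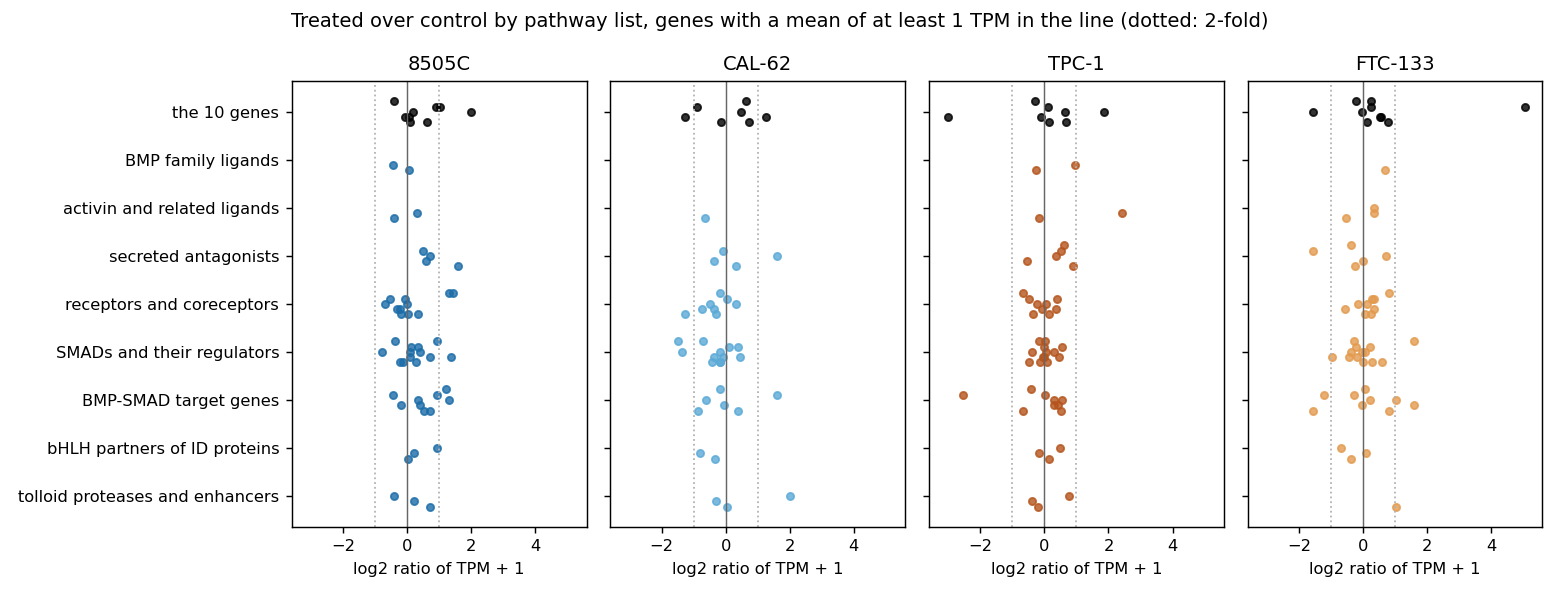
Log2 ratio of TPM + 1 in each line for the 10 genes (black) and the other genes of each pathway list, 1 point a gene with a mean of at least 1 TPM in that line; dotted lines mark 2-fold. The points farthest from 0 are CHRDL1 in FTC-133 (5.07) and ID3 in TPC-1 (-3.02), and most pathway genes lie within 2-fold.

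None of the 45 pathway genes tested passed in any of the 4 limma comparisons. At unadjusted limma p under 0.05 there were 4 of 45 in the siRNA comparison (ENG, FSTL3, SMAD1 and SMAD5), beside 12% of all genes. The vector comparison had 2 (GDF15 and ID4), beside 4.46% of all genes. The siRNA change minus the vector change had 5 (ENG, FSTL3, ID4, SMAD3 and SMAD5), beside 6.67%. The NR1D1-ordered comparison had 3 (FSTL3, SMAD3 and SMAD5), beside 4.09%. These counts are too few to set the lists apart from other genes. ENG had an siRNA change of 1.02 (SE 0.31, limma adjusted p = 0.315) and SMAD1 one of -1.08 (SE 0.31, limma adjusted p = 0.302). Of 14 receptor and coreceptor genes in the tables, 2 of 11 measured in 8505C were 2-fold higher (ENG and ACVRL1), beside 11.9% of all genes. In CAL-62 1 of 8 was lower (BMPR1B), beside 10.7% of all genes. In TPC-1 and in FTC-133 0 of 9 passed 2-fold, beside 11.5% and 16.7% of all genes either way. The type II receptor genes BMPR2, ACVR2A and ACVR2B were at 16.7 to 49.6, 1.43 to 8.99 and 3.21 to 7.11 TPM over the 8 libraries. Of the type I receptor genes, ACVR1 was at 12.04 to 42.1 TPM, the activin receptor gene ACVR1B at 7.65 to 33.8 and BMPR1A at 3.76 to 20.3. BMPR1B was scarcer, at 2.79 and 1.32 TPM in 8505C and listed at 0 in both FTC-133 libraries. In TPC-1 BMPR1B had 1.62 TPM with the empty vector and 0.027 TPM with the NR1D1 vector, on 60 reads and 1 read. Its mean was under 1 TPM, so it was not among the 9.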

How the data were processed

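RNA sequencing of 8 libraries from 4 thyroid cancer cell lines was analysed from the deposited tables of gene values. The submitters' processing notes name FastQC, MultiQC, Trimmomatic 0.38, featureCounts 2.0.0 and the build GRCh38. The sources used here do not give the aligner, annotation release or strandedness. RNA integrity numbers were at least 6.8, per the labels' protocols. The authors deposited TPM for 8505C and CAL-62. The deposited tables of TPC-1 and FTC-133 carry the same name, but value times exon length in GENCODE 29 came to 1.001 to 1.005 of the total that FPKM implies, and 2.20 to 3.48 in the other tables, so these values were read as the authors' FPKM. Every column was rescaled to 1000000. Symbols came from the name table by Ensembl identifier.

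Each library's reads were recovered by multiplying values by exon length and finding the unit at which low values became whole numbers. Of values of 1 to 10 reads, 92.7% to 93.7% were whole within 0.02, and 72.2% to 74.6% of all values were, so no count model was used. The recovered reads gave exact 95% binomial intervals of ratios and Poisson intervals of levels, which cover counting error only. The model was fitted to log2(TPM + 1) with limma 3.58.1 (R 4.3.3), keeping the genes whose mean over the 8 libraries was at least 1 TPM. Cell line entered as a factor, the prior variance followed the mean level, with Benjamini-Hochberg adjustment at 0.05 over 17595 genes. The cell line is the only pairing the labels give, and the p-values measure the spread between lines. The siRNA and vector terms were fitted together with a shared spread, so both changes of a gene have the same SE. The code was tested on simulated data. Named genes were the 10 members, up to 3 genes a pathway list by mean absolute log2 ratio with a mean of at least 5 TPM, and the 3 genes closest to ID1 and INHBA; other pathway genes past 2-fold and the receptors were named after their values were seen. The members and lists were chosen with earlier results of these data known. The symbol CRIPTO of the receptor list matched no name.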

Additional observations from a re-analysis of the deposited data

How the results depend on the processing

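Alternatives were pseudocounts of 0.1 and 5, no filter or a mean of at least 5 TPM, a scale without mitochondrial genes, centring on the median gene, a single prior spread, and leaving out each line. No member passed in any of the 4 limma comparisons under any of them. With a mean of at least 5 TPM the genes called over the whole table went from 0 to 77 for siRNA, 7 for the vector and 2 for their difference, with 11174 genes tested; under all other settings they remained 0. With lines left out, the number called ran from 0 to 0. The siRNA change of INHBA was 0.0827 without mitochondrial genes and 0.0376 when centred, and ran from -1.26 to 1.01 with lines left out. The siRNA change of ID3 ran from -0.13 to 1.98, its vector change from -3.02 to 0.24, the vector change of INHBA from -0.22 to 1.87 and that of ID1 from -0.29 to 0.55. Members 2-fold in 8505C went from 2 to 1 with a pseudocount of 5 and when centred, as INHBA lay near the threshold. In CAL-62 the members past 2-fold were INHBA and CHRDL1, then BMP1, CHRDL1 and ID1 without mitochondrial genes, and BMP1 and CHRDL1 when centred. INHBA was thus no longer 2-fold lower on either scale, though its log2 ratio was still -0.86 without mitochondrial genes. Pathway genes 2-fold higher in FTC-133 went from 4 to 2 when centred. Values of single genes in a line were also compared under each alternative. Of these, 413 lay within the average reach of the counting interval to either side of the reported value, and 51 lay beyond it. Genes with 0 reads in a library had no interval and were counted as within it, and intervals at few reads are wide, so the 413 overstate the stability. No ratio past 2-fold turned sign. Genes at unadjusted p under 0.05 numbered 1113 to 2904 for siRNA and 491 to 1358 for the vector over the settings. Cell line paired treated and control libraries in every fit, and the labels give no replicate numbers. Values under about 10 reads (BMP2 and BMP4 in CAL-62, GREM1 in 8505C and TPC-1) cannot show a change of moderate size.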

Other observations

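Genes that overlap members on the opposite strand could share reads with them, because no source used here says whether counting used strand. The overlaps below run over whole genes with introns, so they can exceed the exon sequence that could be shared. INHBA has 8302 exon bases and ID2 has 2205. AC105206.3 overlaps BMP1 by 4210 bases and was at 1.501 and 2.20 TPM in 8505C and 0.56 and 1.77 in FTC-133. It was at 0 and 0.14 TPM in CAL-62 and 0.28 and 0.41 in TPC-1, levels near the floor. In all 4 lines it was higher in the treated library, as BMP1 was, but in CAL-62 and TPC-1 such low values cannot establish a direction. INHBA-AS1 overlaps INHBA by 11919 bases and was at 2.54 and 2.30 TPM in CAL-62, 2.98 and 2.11 in FTC-133 and under 1 TPM in the other 4 libraries, so it was present in the lines where INHBA was highest. AC090877.2 overlaps GREM1 by 1034 bases and was at 3.68 and 1.28 TPM in CAL-62, 2.92 and 2.66 in FTC-133 and listed at 0 in 8505C and TPC-1. ID2-AS1 overlaps ID2 by 3019 bases and was at 3.23 and 3.55 TPM in TPC-1 and at 0.47 TPM or less in the other 6 libraries. All were at most 3.68 TPM, beside 13.8 to 103.6 TPM for BMP1, 24.9 to 745 TPM for INHBA and GREM1 in CAL-62 and FTC-133 and 26.4 and 42.6 TPM for ID2 in TPC-1.

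INHBE, which encodes another inhibin beta subunit, was at 84.0 and 106.9 TPM in FTC-133 and at 0.41 TPM or less in the other 6 libraries. FTC-133 thus had the highest control level of both INHBA and INHBE. BMP6 was at 6.85 and 5.58 TPM in TPC-1 and at 0.18 TPM or less elsewhere, and BMP8B was at 6.10 and 6.41 TPM in 8505C and 3.21 and 7.09 in TPC-1. The activin antagonist gene FSTL3 was at 170 TPM in FTC-133 control cells, 61.2 in TPC-1, 6.64 in 8505C and 1.10 in CAL-62.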
